A study of Mus musculus with 6 samples.

Results

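Regulators of cell cycle exit are the genes that decide whether a myoblast goes on dividing or stops to become a myotube. Here they are 10 genes: the inhibitors Cdkn1a, Cdkn1b, Cdkn2a and Cdkn2c, the pocket protein genes Rb1, Rbl1 and Rbl2, the cyclin genes Ccnd1 and Ccnd3, and the kinase gene Cdk4. They were set out by name from their known roles, but with earlier results of these data known. They are 10 of the 21887 protein-coding genes of the RefSeq gene table. A peak belonged to a gene when it overlapped the RefSeq span of that gene or the 20 kb on either side, in mm10 coordinates. Peaks of both lists that overlapped by at least 1 bp formed a shared region, and a peak with no such overlap is called unpartnered.

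The DNA was isolated by ChIRP, in which biotin-labelled probes capture an RNA together with the chromatin attached to it, here the long non-coding RNA LncMyoD. All samples were C57BL/6 mouse primary myoblasts, labelled as skeletal muscle in origin and as differentiated myotubes, after 2 days in 2% horse serum. The 6 samples were 2 replicates each of an odd pool of probes, of an even pool and of input, with no knockout, other treatment or other time. The deposited results were 2 peak lists, 1 for each replicate, whose names match a label that odd, even and input samples share, so pools and input could not be compared here, and the spread between lists may be technical.

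In a dividing cell, D-type cyclins activate CDK4, which phosphorylates the pocket proteins RB, p107 and p130 and so frees E2F factors to switch on genes of DNA synthesis. Differentiating myoblasts raise inhibitors such as p21, keep the pocket proteins active and leave the cycle for good. MyoD, whose gene neighbours that of LncMyoD, is known to induce p21, RB and cyclin D3 in muscle cells. Peaks of captured DNA give the place of the RNA's contact or of the probes' own binding, and say nothing of how strongly a gene is transcribed. For the same reason the labelled cell type could not be checked against its markers.

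The lists held 157214 peaks in replicate 1 and 179630 in replicate 2, with 97115 shared regions on the 21 assembled chromosomes. Fold enrichment is the authors' value at each summit over the background that the caller estimated, and q is their adjusted p for each peak. The depth behind these values is unknown. Strength is given as the percentile of −log10 q within a list, and as the mean of both percentiles for a shared region, so that 100 would be the strongest.

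All 10 genes had a shared region in the gene or within 20 kb, against 89.6% of all protein-coding genes, so a region in this window did not set them apart. Counted in each list by itself, all 10 had a peak there too, against 94.7% of genes in replicate 1 and 96% in replicate 2. Together they held 29 shared regions in 795 kb, from 1 at Cdkn2c, Rbl1 and Ccnd1 to 6 at Cdk4. Per 100 kb of window their median was 3.29 shared regions, against 4.27 for all protein-coding genes. Cdk4, Cdkn1b, Cdkn1a and Cdkn2a lay above that median and the other 6 genes below it, Rbl2 by the least (4.26). The density at Cdk4 was 13.7 per 100 kb, higher than at 98.0% of genes, while that at Rbl1, 1.01 per 100 kb, was higher than at only 11.6%.

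**Figure D1:**
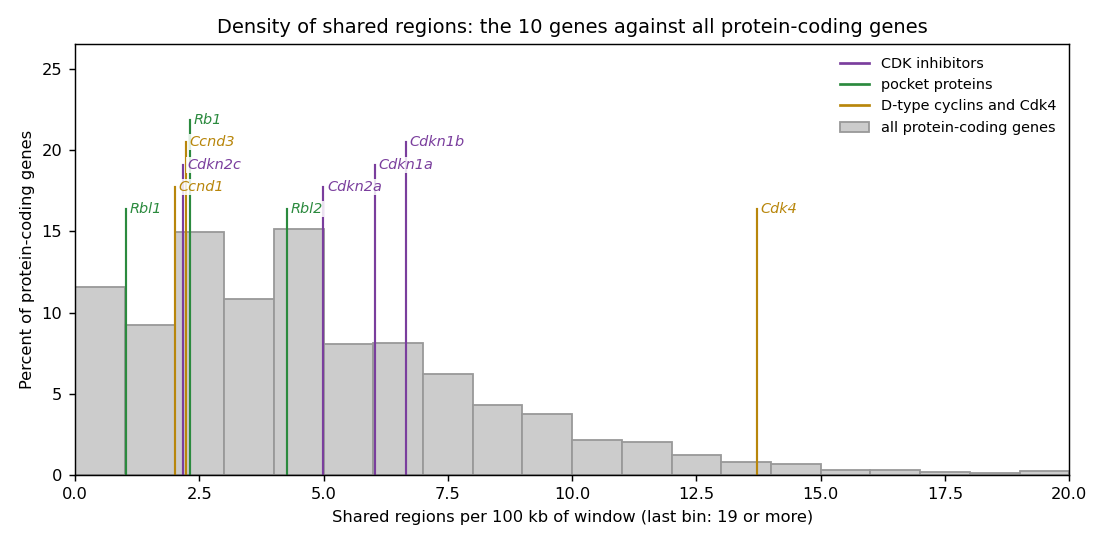
Shared regions per 100 kb of window (x axis) for all protein-coding genes (grey bars, percent of genes on the y axis) and for the 10 genes (coloured lines, by role; line height has no meaning). Cdk4 stands at 13.7 per 100 kb, and the other 9 genes lie between 1.01 and 6.65.

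The regions themselves were of middling strength. In replicate 1 their folds had a median of 8.45, against 11.0 for all shared regions, and in replicate 2 of 10.8, against 12.0. Their median mean percentile was 52.3, against 62.7, and their median width 612 bp, against 749 bp. Regions of at least 20-fold in both lists made up 6 of the 29 (20.7%), against 20.5% of all shared regions, and lay at Cdkn1b, Rb1, Rbl2 and Cdk4. Such a region was near 4 of the 10 genes, against 45.8% of protein-coding genes.

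Of the 29 regions, 11 lay within the gene, 1 over a gene end and 17 outside. For 7 of the 10 genes the strongest region was outside. The same split was not counted for all protein-coding genes. For the 5 members of 10 kb or less the 20 kb flanks are most of the window, so the split is not a result about these genes. The span of the gene itself held a shared region in 7 genes, against 56.4% of protein-coding genes, a replicate 1 peak in 7 (against 63.9%) and a replicate 2 peak in 9 (against 67.9%). Length goes with this count. Of the 5 members of 10 kb or less, 2 had a shared region in the span, against 25.4% of genes of that size, and all 4 members of 50 kb or more did, against 93.2%. The gene table gives no exons, so exon, intron and UTR were not told apart. Another gene and not the member was the gene overlapped or nearest at 13 of the 29 regions. A further 3 overlapped both the member and another gene. These shares were not counted for the windows of all protein-coding genes either.

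**Figure D2:**
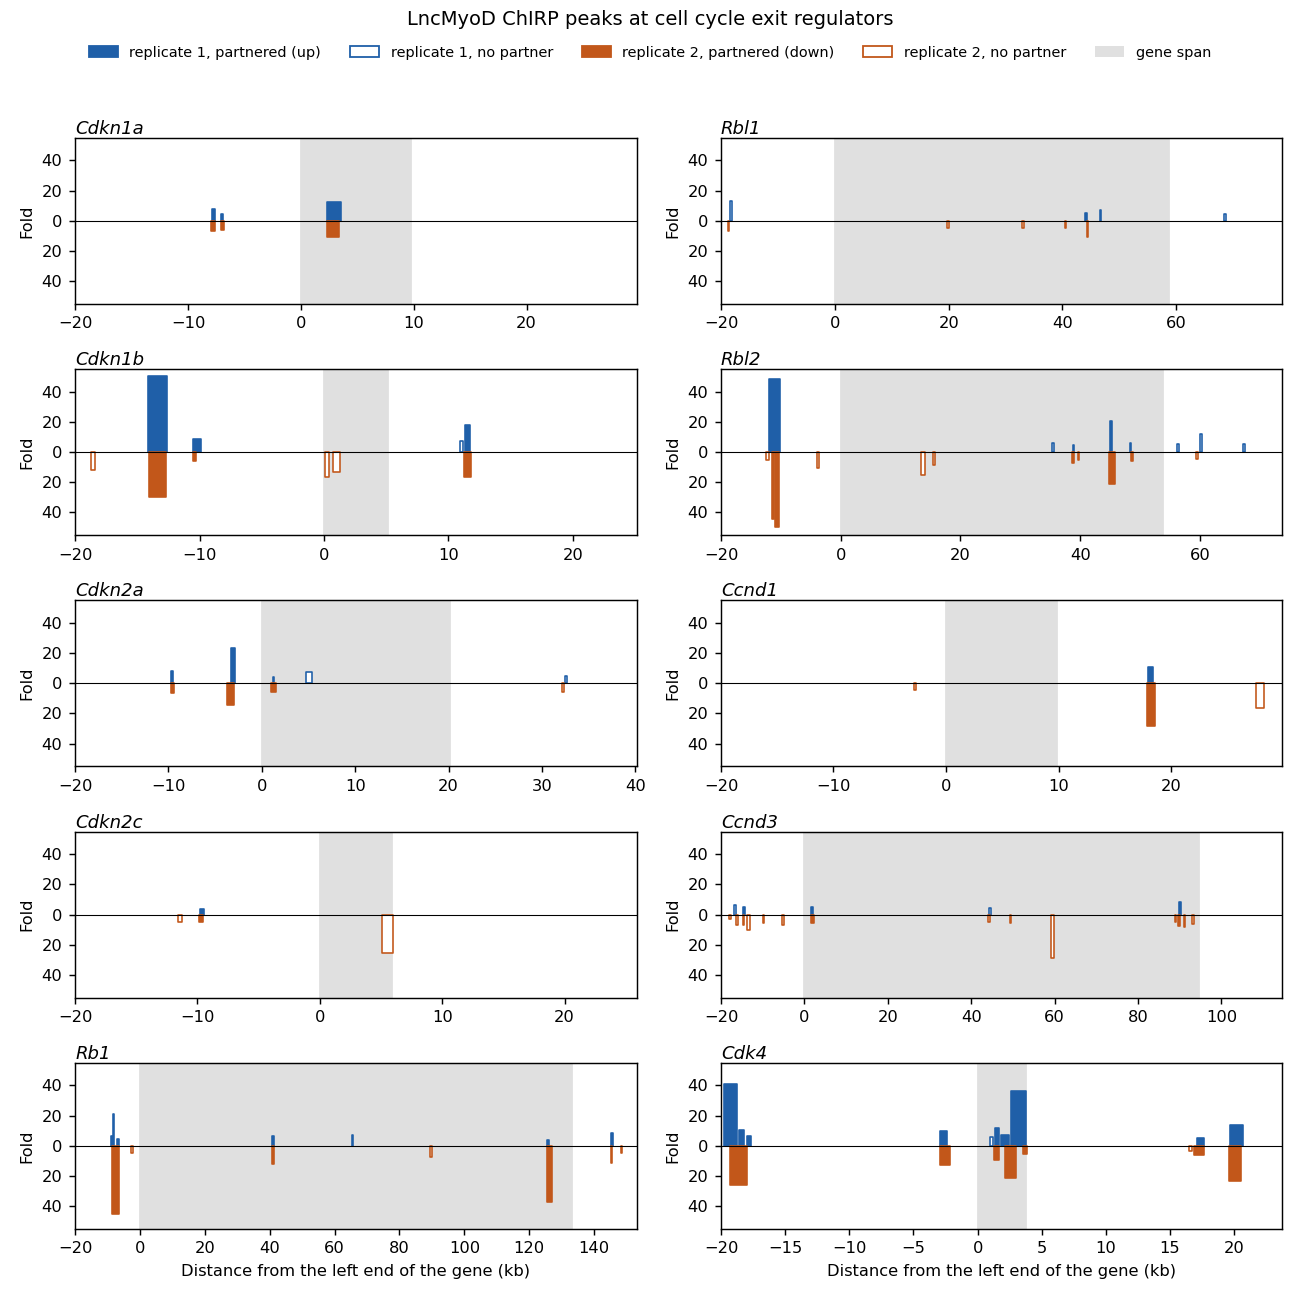
Peaks in each gene (grey span) and 20 kb either side, drawn from the left end of the gene in kb, with fold enrichment upward for replicate 1 and downward for replicate 2; filled boxes have a partner in the other list and open boxes have none, and very narrow peaks are widened to stay visible. The tallest pairs stand outside the gene at Cdkn1b and Rbl2, and a 25.6-fold replicate 2 peak without a partner stands at the right end of Cdkn2c.

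Cdkn1a encodes p21, the inhibitor of cyclin-dependent kinases that MyoD is known to induce as myoblasts stop dividing. It lies on chromosome 17 from 29090979 to 29100722 and was the only one of the 10 genes without an unpartnered peak, with 3 peaks in each list that paired as 3 shared regions. The strongest, from 29093307 to 29094528, lay inside the gene with folds of 12.1 in replicate 1 and 10.8 in replicate 2 and a mean percentile of 63.6. RefSeq gives Cdkn1a a start at 29090979 and another at 29093769, and this region covered the whole promoter window of the inner start, here 250 bases before to 50 after it. Its summit lay at position -69 bp from the inner start in replicate 1 and at -172 bp in replicate 2. The outer start was 2328 bp from the nearest peak of replicate 1 and 2337 bp from that of replicate 2. The remaining regions were weaker (8.08-fold and 6.49-fold; 4.77-fold and 5.87-fold) and lay 7575 and 6795 bp upstream, on the side of Trp53cor1, the gene of the p53-induced non-coding RNA lincRNA-p21.

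Among the 12 promoter windows that RefSeq (build GRCm38.p6, the assembly of mm10) gives for 8 of the 10 genes, the inner start of Cdkn1a was the only window with peaks of both lists, against 7.54% of the 21263 windows of protein-coding genes. Replicate 1 peaks touched 1 of the 12 (against 10.4%) and replicate 2 peaks 2 (against 12.7%). The outer window of Cdkn1a is shown for contrast, with that of Cdkn2c, touched in replicate 2 alone, and that of Cdk4, with no peak. These last 3 were chosen after their values were seen. Capitals mark CANNTG, the E-box that MyoD and other bHLH factors read, on both strands, and all sequences run 5′ to 3′ on the strand of the gene.
Cdkn1a inner start, chr17:29093519-29093818, plus strand: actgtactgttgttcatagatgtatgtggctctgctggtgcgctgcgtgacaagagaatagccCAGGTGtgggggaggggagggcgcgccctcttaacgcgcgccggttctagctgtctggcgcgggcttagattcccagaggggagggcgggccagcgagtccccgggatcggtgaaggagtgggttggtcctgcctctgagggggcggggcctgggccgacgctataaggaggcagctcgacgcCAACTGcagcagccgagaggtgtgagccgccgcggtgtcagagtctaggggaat
Cdkn1a outer start, chr17:29090729-29091028, plus strand: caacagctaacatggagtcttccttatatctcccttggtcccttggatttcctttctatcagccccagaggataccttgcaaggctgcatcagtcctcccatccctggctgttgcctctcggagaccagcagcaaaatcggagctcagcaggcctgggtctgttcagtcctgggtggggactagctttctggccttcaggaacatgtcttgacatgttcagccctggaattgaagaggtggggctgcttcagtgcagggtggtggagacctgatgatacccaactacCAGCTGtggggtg
Cdkn2c outer start, chr4:109666707-109667006, minus strand: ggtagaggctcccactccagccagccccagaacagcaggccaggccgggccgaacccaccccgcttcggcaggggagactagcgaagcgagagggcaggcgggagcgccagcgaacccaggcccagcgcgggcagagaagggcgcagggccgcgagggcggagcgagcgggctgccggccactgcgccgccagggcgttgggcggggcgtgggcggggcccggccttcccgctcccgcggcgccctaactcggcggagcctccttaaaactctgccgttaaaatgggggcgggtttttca
Cdk4 start, chr10:127063285-127063584, plus strand: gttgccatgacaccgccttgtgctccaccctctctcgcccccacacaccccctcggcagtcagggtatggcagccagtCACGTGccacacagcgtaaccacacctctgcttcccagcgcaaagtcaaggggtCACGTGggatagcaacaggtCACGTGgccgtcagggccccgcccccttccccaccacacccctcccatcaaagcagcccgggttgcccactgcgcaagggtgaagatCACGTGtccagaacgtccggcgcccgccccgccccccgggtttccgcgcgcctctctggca

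The inner Cdkn1a window held 2 E-boxes, beginning at positions -187 and -4 from the start, the first of them CACCTG read on the other strand. The outer window held 1, of the form CAGCTG, beginning at position 38, counting the start as 1. No E-box stood in the Cdkn2c window. The Cdk4 window held 4, all of the form CACGTG, the most of the 12, and no peak of either list reached it. CANNTG was present in 5 of the 12 windows, against 69.0% of promoter windows of protein-coding genes, CAGCTG in 2 (against 15.6%) and CACCTG in 1 (against 19.7%). Each of these forms is a case of the E-box and is counted in it. These matches describe the letters only.

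Cdkn1b encodes p27, the other inhibitor of the Cip/Kip family here, which holds cells in G1. On chromosome 6 (134920401 to 134925525) it had no shared region inside the gene and 3 beside it. The first, from 134906219 to 134907773, lay 12628 bp upstream with folds of 50.5 in replicate 1 and 30.1 in replicate 2, and its summits were 4 bp apart. It took place 6872 among all shared regions, and 78.0% of protein-coding genes had a weaker best region or none. Another, at 8.45-fold and 5.69-fold, lay 9896 bp upstream. The gene 2810454H06Rik was nearer than Cdkn1b to both of these regions, at 5434 bp and 9119 bp. A region downstream (134931642 to 134932253, 17.9-fold and 16.4-fold) lay inside Lockd, the gene of a non-coding RNA next to Cdkn1b. Where the member had to be the nearest gene, and with a window of 5 kb, Cdkn1b had 0 shared regions.

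At the start of Cdkn1b itself the lists differed. Replicate 2 had a 16.4-fold peak from 65 to 433 bp and a 13.3-fold peak from 723 to 1316 bp downstream of the start, and no replicate 1 peak was nearer to either than 9590 bp. The windows of Cdkn1b and Cdkn1a were the densest among the inhibitors, with 6.65 and 6.03 shared regions per 100 kb.

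Cdkn2a gives rise to p16INK4a, an inhibitor of CDK4 and CDK6, and from another start to p19ARF, which stabilises p53. On chromosome 4 (89274473 to 89294619) it had 3 shared regions, all on the downstream side or in the downstream part of the gene. The strongest (89270770 to 89271557) lay 2916 bp beyond the gene, at 23.1-fold in replicate 1 and 14.5-fold in replicate 2. The next was 9379 bp away (8.20-fold and 6.18-fold), and the region inside the gene was weak (89275505 to 89276019, 3.94-fold and 5.87-fold). Both RefSeq starts were free of peaks. The inner start was 2394 bp from a replicate 1 peak (7.35-fold) and 6173 bp from a replicate 2 peak, and the outer start was 12323 bp and 11962 bp from the nearest of each list. The window also takes in the neighbour Cdkn2b, the gene of p15INK4b, where each list had a weak unpartnered peak (5.14-fold in replicate 1, 5.87-fold in replicate 2) and these peaks lay 100 bp apart.

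Cdkn2c encodes p18INK4c, an inhibitor of CDK4 and CDK6 like p16. Its window on chromosome 4 (gene from 109660876 to 109666756) held 1 peak of replicate 1 and 3 of replicate 2. The only shared region, 9500 bp downstream, was among the weakest of all, with folds of 3.67 and 4.63 and place 95707 of 97115. Over the outer start, replicate 2 had a peak of 25.6-fold (109665977 to 109666831) that covered 125 of the 300 bases of the promoter window. In replicate 1 the nearest peak to it was 14601 bp away. Of unpartnered peaks of replicate 2 in the whole list, 2.52% reached 25-fold.

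**Figure D3:**
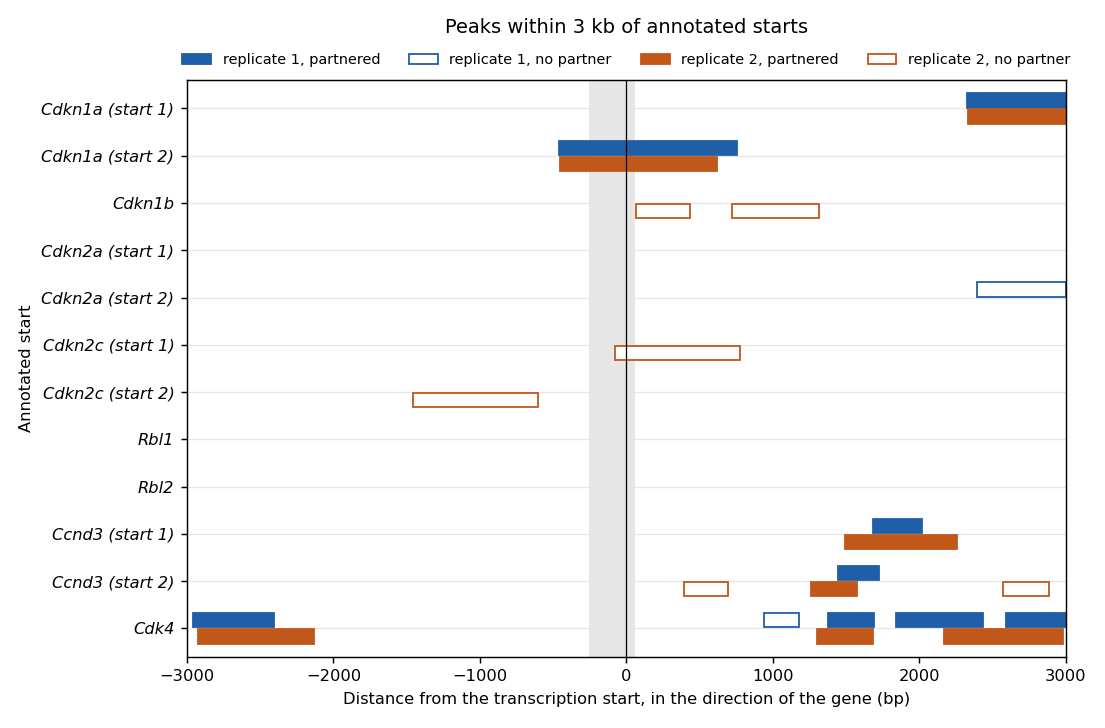
Peaks within 3 kb of the 12 RefSeq starts of 8 genes, by distance in bp in the direction of the gene; blue is replicate 1, orange replicate 2, filled boxes have a partner and open boxes have none, and the grey band is the promoter window. Filled boxes of both replicates cover the start only at the second start of Cdkn1a.

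A shared region lay within 1 kb of 1 of the 12 starts, against 17.6% of starts of protein-coding genes. A replicate 1 peak did so at 2 starts (against 22.4%) and a replicate 2 peak at 5 (against 26%). The starts with a replicate 2 peak alone belonged to Cdkn1b, Cdkn2c and the inner start of Ccnd3, and that with a replicate 1 peak alone was Cdk4. Both starts of Cdkn2c lay near the same peak. Rb1 and Ccnd1 have no entry in the promoter table.

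Rb1 encodes RB, the pocket protein that holds E2F targets silent in myotubes. It is the longest of the 10 genes (chromosome 14, 73192858 to 73325951, 133094 bp), and its window held 7 peaks of each list and 4 shared regions, 2.31 per 100 kb. The strongest lay outside, from 73184157 to 73186277, 6581 bp from Rb1 and 102 bp from its neighbour Rcbtb2. There replicate 2 had 1 peak of 45.4-fold over 2102 bp, and replicate 1 had 3 narrow peaks of 6.24-fold, 21.3-fold and 4.41-fold.

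Inside Rb1 lay the region on whose fold the lists differed most among the 29. A region from 73318281 to 73319889, between 125 and 127 kb from the left end of the gene, had a fold of 37.4 and a width of 1609 bp in replicate 2, but 3.94-fold and 415 bp in replicate 1. The ratio of 9.49 between the lists was exceeded at 17 of the 97115 shared regions, and the median ratio of the higher to the lower fold was 1.35 at the 29 regions and 1.34 at all. Its summits were 491 bp apart, the widest gap of the 29. A region at 73233680 to 73234044 (6.63-fold and 11.7-fold) and another 12106 bp from the gene (8.45-fold and 11.4-fold) were closer between lists. At all 4 regions of Rb1 replicate 2 was the higher.

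Rbl1 encodes p107, the pocket protein of dividing cells. Across 58642 bp on chromosome 2 (157145893 to 157204534) and both flanks it had 4 peaks of replicate 1 and 5 of replicate 2, and they met once. That region (157189944 to 157190434) had folds of 5.14 and 10.5 and lay 14360 bp downstream of the start. The 13.0-fold unpartnered peak of replicate 1, the strongest peak of the window, lay in the neighbour Samhd1, 64 bp from a 6.92-fold peak of replicate 2. The peaks nearest to the Rbl1 start were 9734 bp away in replicate 1 and 14100 bp away in replicate 2.

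Rbl2 encodes p130, the pocket protein that takes over in cells that have left the cycle. Its window on chromosome 8 (gene from 91070057 to 91123844) held the shared region of the highest place among those of the 10 genes, from 91058086 to 91059864, at 48.5-fold in replicate 1 and 49.7-fold in replicate 2. There replicate 1 had 1 peak of 1779 bp, and replicate 2 had 2 peaks within it, of 461 bp (44.5-fold) and 556 bp (49.7-fold). Neither made a pair with it when each peak had to cover 50% of the other. The strongest region of Rbl2 then had folds of 4.77 and 7.10, under the 50.5 and 30.1 at Cdkn1b. The region took place 3791, lay 10193 bp upstream of Rbl2 and overlapped the non-coding RNA gene Gm39221. Inside Rbl2 there were 3 regions, the strongest at 20.6-fold and 21.0-fold (91114919 to 91115840), where the gene overlaps Aktip. The others had folds of 4.77 and 7.10, and of 5.88 and 5.87. The fold of replicate 2 over that of replicate 1 was 1.03 at the upstream region and 1.02 at the strongest inside the gene, so the lists gave these nearly the same height. The start of Rbl2 was 10193 bp from a replicate 1 peak and 3622 bp from a replicate 2 peak.

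**Figure D4:**
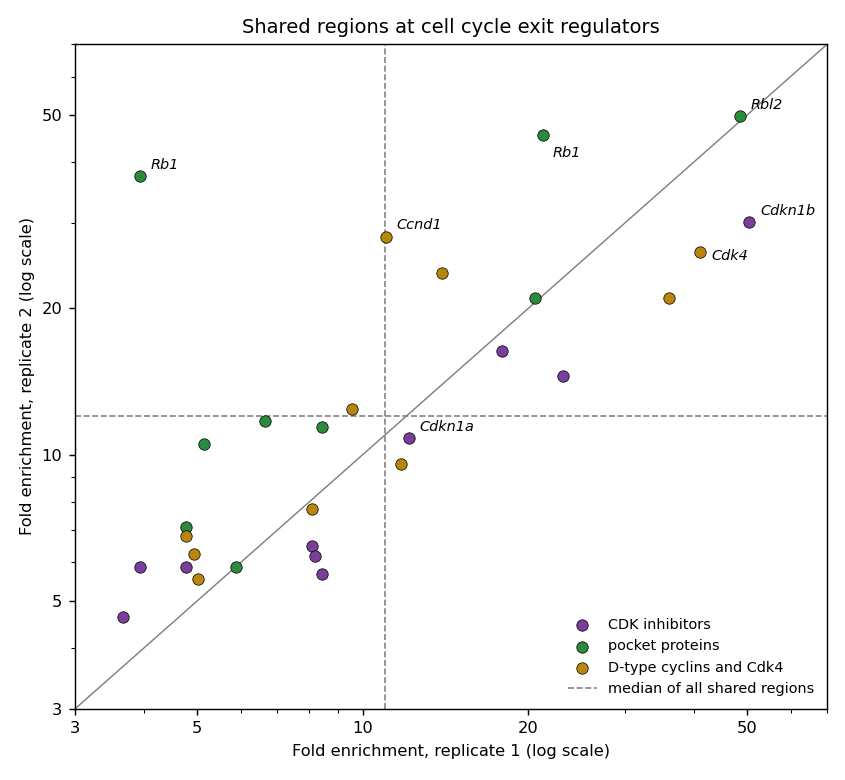
Fold enrichment of the 29 shared regions in replicate 1 (x axis) and replicate 2 (y axis), both on log scales, coloured by role, with the line of equal folds and the medians of all shared regions (dashed; 11.0 and 12.0). The Rb1 region at 3.94-fold and 37.4-fold lies farthest from the line, and that of Rbl2 at 48.5-fold and 49.7-fold lies almost on it.

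Ccnd1 encodes cyclin D1, which drives myoblast division and is shut off on differentiation. Around the gene (chromosome 7, 144929931 to 144939831) replicate 1 had 1 peak and replicate 2 had 3, none of them inside it. The shared region, from 144947835 to 144948476, lay 8004 bp from the gene with folds of 11.0 in replicate 1 and 28.1 in replicate 2. Replicate 2 also had a 16.4-fold peak 17638 bp away that replicate 1 lacked.

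Ccnd3 encodes cyclin D3, the D-type cyclin that stays high in myotubes. It showed the widest difference in the number of peaks, with 5 in replicate 1 and 14 in replicate 2 over a window of 135 kb (gene on chromosome 17, 47505051 to 47599689). The 3 shared regions were weak: 4.77-fold and 6.79-fold in the neighbour Taf8, 5.01-fold and 5.56-fold 1491 bp inside the outer start, and 8.08-fold and 7.72-fold 1261 bp inside the inner start. Of the 11 unpartnered peaks of replicate 2, the strongest (47564274 to 47565018) reached 28.7-fold inside the gene. No peak of replicate 1 lay within 14529 bp of it.

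Cdk4 encodes the kinase that D-type cyclins activate. It is the shortest of the genes (chromosome 10, 127063535 to 127067288, 3754 bp) and had the most shared regions, 6 in 43.8 kb, in a stretch that also holds Mettl1, Marchf9, Tspan31 and Agap2. Where the member had to be the nearest gene it had 2, against 3 at Cdkn2a, Rb1 and Rbl2, and in the replicate 2 list by itself its 8 peaks were fewer than the 14 at Ccnd3 and the 11 at Rbl2. Peaks covered 14.3% of the window in replicate 1 and 12.4% in replicate 2, against 0.636% to 6.18% and 1.49% to 7.74% at the other genes. The strongest region (127043781 to 127045909, 41.1-fold and 26.1-fold) overlapped Mettl1, 17626 bp upstream. A region of 36.0-fold and 21.0-fold (127065378 to 127067349) lay over the end of Cdk4 and reached into Tspan31. A weaker region lay inside the gene (11.8-fold and 9.57-fold), and another 2135 bp upstream (9.55-fold and 12.4-fold). Cdk4 and Rbl2 were the 2 members with a region of at least 20-fold in both lists that touched the gene. Regions of 13.9-fold and 23.6-fold and of 4.94-fold and 6.23-fold lay in Agap2.

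By role, the inhibitors had 10 shared regions in 201 kb of window (4.98 per 100 kb), the pocket proteins 9 in 366 kb (2.46) and the cyclins with Cdk4 10 in 228 kb (4.38). Without Cdk4, Ccnd1 and Ccnd3 together had 4. The median folds were 8.32 and 6.33 for the inhibitors, 6.63 and 11.7 for the pocket proteins, and 10.3 and 11.0 for the cyclins with Cdk4, each in replicate 1 and replicate 2. Roles of 3 or 4 genes do not allow a comparison between them.

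Agreement of the lists was read from all peaks of the windows. In replicate 1, 34 of 48 peaks had a partner (70.8%, 95% exact binomial interval 55.9 to 83.0%), against 67.2% of the whole list. In replicate 2, 31 of 64 did (48.4%, interval 35.8 to 61.3%), against 57.8%. Neighbouring peaks are not independent, so these intervals cover counting error only. Of the 47 unpartnered peaks, 10 lay within 100 bp of a peak of the other list and 19 within 1000 bp. The same was not counted over all unpartnered peaks, so these counts do not set the 10 genes apart. Unpartnered peaks of at least 10-fold numbered 2 of 14 in replicate 1 (14.3%, against 17.4% of all unpartnered peaks of that list) and 9 of 33 in replicate 2 (27.3%, against 19.5%). The 9 lay at Cdkn1b (3), Cdkn2c, Rbl2 (2), Ccnd1 and Ccnd3 (2). At the shared regions the summits were a median of 108 bp apart, against 74 bp at all shared regions.

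**Figure D5:**
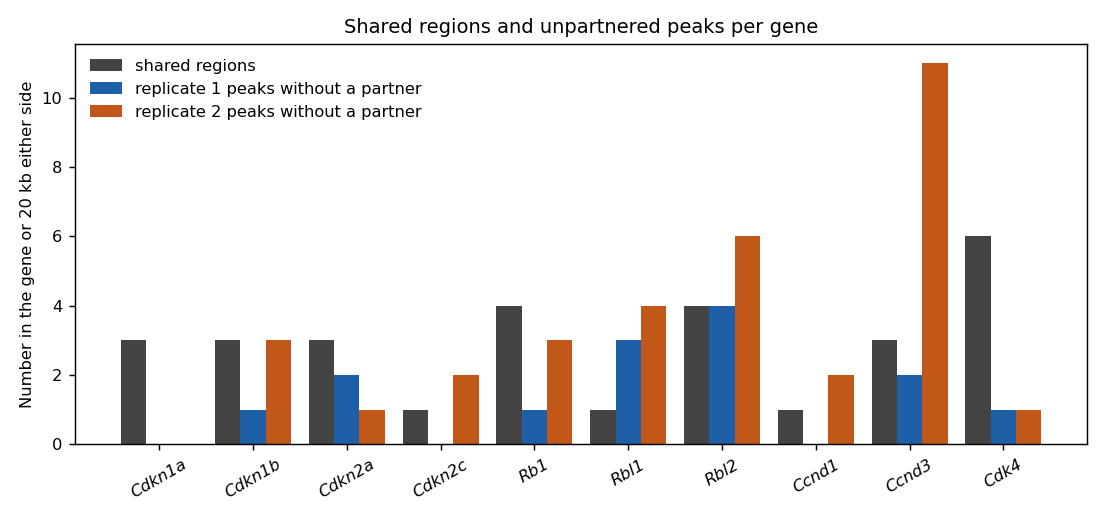
Number of shared regions (dark grey), unpartnered replicate 1 peaks (blue) and unpartnered replicate 2 peaks (orange) in each gene or 20 kb either side. Cdkn1a has no unpartnered peak, Cdk4 has the most shared regions (6), and Ccnd3 has 11 unpartnered replicate 2 peaks.

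At the 20 kb border, regions left out could be stronger than those counted. The shared region farthest from its gene and still counted was that at Mettl1, 17626 bp from Cdk4. The nearest left out lay 20844 bp from Rbl2, with folds of 38.8 and 38.9, and a region of 70.5-fold and 59.9-fold lay 28799 bp from Ccnd3, against 8.08-fold and 7.72-fold for the strongest inside the Ccnd3 window.

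The wider pathway was read in the same windows from 44 further genes in 5 lists. A shared region was near 40 of them (90.9%, against 89.6% of protein-coding genes) and in the span of 27 (61.4%, against 56.4%). The median was 3.58 shared regions per 100 kb, against 4.27. Genes without one were Cdkn2b, the cyclin genes Ccne2 and Ccnh, and the phosphatase gene Cdc25c.

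All 10 genes of E2F factors and their DP partners had a region, led by Tfdp1, which encodes the DP1 subunit (61.3-fold in replicate 1 and 56.1-fold in replicate 2), and E2f3 (43.3-fold and 44.5-fold). All 8 genes of a list around DREAM, a complex that joins p107 or p130 to cell cycle promoters, had a region as well. The list covers the MuvB core too, and not every gene in it encodes a part of DREAM. It was led by the kinase gene Dyrk1a (32.9-fold and 40.8-fold) and Mybl2 (29.4-fold and 39.5-fold). All 8 regulators of inhibitor and cyclin levels did too, led by Cks1b, a cofactor in p27 destruction (85.6-fold and 71.7-fold, 11385 bp from the gene), and Fbxw7, the ubiquitin ligase subunit for cyclin E (71.3-fold and 59.6-fold). Of 14 other cyclins, kinases and phosphatases 11 did, led by the CDK phosphatase gene Cdc25a (51.2-fold and 51.6-fold) and Cdk1 (41.1-fold and 35.8-fold). Of 4 other inhibitor genes 3 did, led by Cdkn2d, which encodes p19INK4d (54.1-fold and 52.2-fold), and Cdkn1c, which encodes p57 (17.3-fold and 19.8-fold). The named regions of Tfdp1, Dyrk1a, Cdk1 and Cdkn1c also lay outside the gene, by 396, 4311, 7612 and 1955 bp. A shared region was near 89.6% of all protein-coding genes, so these counts do not set the lists apart. Of the 10 members, the best regions of Rbl2 and Cdkn1b, with mean percentiles of 97.2 and 94.9, stood beside those of Cdc25a (97.7) and Cdk1 (94.9), and that of Cks1b was higher (99.8).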

How the data were processed

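ChIRP-seq peak lists of LncMyoD in mouse myotubes, 1 for each replicate, were analysed. Per the submitters' processing notes, the tools were MACS2 2.1.1, Picard 2.9.2 and Bowtie2 2.3.2, with genome mm10; neither their order and settings nor the libraries and threshold behind each list are given. Each list was taken as the authors' pooled list of its replicate, with no SD or n. The authors deposited a fold enrichment (ratio) per peak, q as −log10 values, a score that is 10 times −log10 q cut to a whole number, and the summit in bp from the peak start. Read depth is unknown.

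Members and gene lists were chosen with earlier results of these data known, so no test was made over them; counts stand beside those of all protein-coding genes. Named genes were all members, genes overlapping or nearest to a named region and, of each pathway list, genes without a shared region and the 2 with the strongest. Genes and promoters came from RefSeq (GRCm38.p6). Promoters were to be printed where both lists had a peak; 3 others were added after their values were seen. Intervals are 95% exact (Clopper-Pearson). Overlap counting was tested on simulated lists. It ran in Python 3.11.15 with pandas 2.3.3, numpy 2.4.6, matplotlib 3.10.9 and scipy 1.17.1.

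Alternatives tried were a fold minimum of 5 or 10, a −log10 q minimum of 5, the 10000 strongest peaks, a reciprocal overlap of 50%, summits within 200 bp, either list alone, windows of 5 and 50 kb, and regions whose nearest gene was the member.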

Additional observations from a re-analysis of the deposited data

How the results depend on the processing

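The number of the 10 genes with a shared region in the window was compared under each alternative, counting any peak where a list stood alone. It stayed between 7 and 10 except with the 10000 strongest peaks of each list. There it was 1 (Rbl2), against 20.6% of protein-coding genes. The number was 7 at fold of at least 10 (against 70.5%) and 7 with a window of 5 kb (against 70.3%). With a reciprocal overlap of 50% it was 8 (against 81.3%). The gene span held a shared region in 3 genes at fold of at least 10, in 4 with a reciprocal overlap of 50% and in 0 among the 10000 strongest peaks. For the span, the share of all protein-coding genes was not counted under these settings. For the window, that share fell under each of them. The number of shared regions, 29, became 11 at fold of at least 10, 1 among the 10000 strongest peaks, 14 with a reciprocal overlap of 50%, 14 and 57 with windows of 5 and 50 kb, and 16 where the member had to be the nearest gene. In a list by itself the windows held 48 to 64 peaks (48 in replicate 1, 64 in replicate 2). Of all 112 peaks 58.0% had a partner, against 42.9% among the 10000 strongest, 25% with a reciprocal overlap of 50% and 35.7% with summits within 200 bp. In the main setting the whole-list shares were 67.2% in replicate 1 and 57.8% in replicate 2. Under the stricter settings they were not counted, so these falls do not set the 10 genes apart. The 42.9% rests on few peaks, with 1 shared region left. Of 110 region counts of single genes under these alternatives, which count peaks where a list stood alone, 53 stayed within 1.5 times the value given. Cdk4, with 6 the highest count, had 3 with summits within 200 bp or a window of 5 kb, as many as Rbl2, and 2 where it had to be the nearest gene. Folds of the strongest region of single genes were compared only where the gene kept a region, so lost regions are not among them. Of 136 such folds, 35 changed. With a reciprocal overlap of 50% these folds, in replicate 1 and replicate 2, were 4.77 and 7.10 at Rbl2, 6.63 and 11.7 at Rb1, 8.20 and 6.18 at Cdkn2a, and 13.9 and 23.6 at Cdk4. With a window of 50 kb they were 94.8 and 74.7 at Rbl2 and 70.5 and 59.9 at Ccnd3. No paired analysis was possible because the deposited lists carry no value for odd, even or input libraries. Without depth, a missing peak cannot be told from a peak below the caller's threshold.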
